A study of Bos indicus with 11 samples.

Results

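Transcripts of 9 complement genes were compared in the endometrium of beef cows on day 6 after artificial insemination (AI), namely MASP1, MASP2, C1R, C1S, C2, C3, CFB, CFI and CD55. They are 9 of the 24616 genes listed in the table and of the 15081 genes that were tested. MASP1 was chosen by its difference between the groups, since it is among the genes the study lists as differing. The other 8 act in the same cascade, and all 9 were chosen with the differences between the groups known. The difference between the groups in these 9 genes is therefore given as a description, with no test. Endometrial biopsies came from healthy, multiparous, adult Nelore cows (Bos indicus) whose estrus had been synchronized and which were inseminated at detected estrus. Each cow gave 1 biopsy, cut from the horn opposite to the ovary with the corpus luteum, so neither group was sampled in the horn next to the ovulation. Pregnancy diagnosis on day 30 placed 6 cows in the pregnant group (P) and 5 in the non-pregnant group (NP). All of these cows were selected for similar progesterone concentrations on the day of biopsy, and the embryo itself was not sampled. Cow P617 carries the label pregnant and is kept as P, whereas a supplementary text of the study lists it as NP.

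Complement is a cascade of plasma proteins that tags surfaces for removal by phagocytes. The classical pathway starts when C1q binds and activates the proteases C1r and C1s, and the lectin pathway starts when mannose-binding lectin, ficolins or collectins bind sugars and activate the proteases of the MASP family. Both cleave C4 and C2 to form a C3 convertase, while the alternative pathway forms one from C3 and factor B. Most circulating complement is made in the liver, and epithelial cells, fibroblasts and macrophages make some components locally. The MASP1 gene gives rise to the proteases MASP-1 and MASP-3 and to the inhibitor MAp44 by alternative splicing, and a count per gene does not separate them. In bulk tissue, fewer cells of a type and less RNA per cell cannot be told apart.

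Values are read counts per gene divided by a size factor for each cow (normalised counts), and between 9290949 and 13569085 reads were counted on genes per cow. They were compared on the log2(normalised count + 1) scale as P over NP, so a positive log2 fold change is higher in P, and this scale understates the change of low genes. All 9 genes reached the minimum mean of 5 normalised counts and had at least 1 read in every cow. Markers of epithelium, stroma and smooth muscle were present in each biopsy. Cow P617 stood apart from the other 10. Its coordinate on the first principal component, which held 46.6% of the variance, was 166.4, with P1541 next at 59.1 and the other cows between -43.3 and 8.58. The 8 epithelial markers summed to 1954 normalised counts in P617, against 8202 to 20814 in the other P cows and 8993 to 13777 in the NP cows, and EPCAM, the highest of them on average, was at 268.9. The 6 smooth muscle markers, led by the ACTG2 row, which also carries the symbol ACTA2, summed to 464881 in P617, to 356259 in P1541, to between 59895 and 149109 in the other P cows and to between 29604 and 200192 in the NP cows, with NP638 at the top. All 6 smooth muscle and all 8 epithelial markers had a row and none was at 0 in every cow. P617 was the highest cow for ACTG2, MYH11, CNN1 and SMTN. DES was 71427 in P617 and 73605 in P1541, and MYOCD was 109.6 in P617 and 51.0 to 660.4 in the other 10 cows. P617 also held transcripts of hepatocyte genes, with FGB, a fibrinogen chain, at 5329 and albumin (ALB) at 3323, and these 2 genes reached at most 33.6 and 46.5 elsewhere. Of the 6 hepatocyte markers 5 had a row, and P617 was the highest cow for FGB, ALB, TF and SERPINC1. APOA1 did not share this pattern, at 220.3 in P617 and 164.5 to 1309 in the other 10 cows. The sum of the 5 was 10304 in P617, 214.4 to 640.9 in the other P cows and 415.7 to 1446 in the NP cows. P617 was the highest cow for 7 of the 9 genes, and for all 9 the highest cow was in P. Each difference is therefore also given without P617 and without both P617 and P1541.

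MASP1 and MASP2 encode proteases of the lectin pathway, and only MASP1 had a large difference between the group means. The MASP1 count (ENSBTAG00000012467) was lowest in P2396 at 25.4 and highest in P617 at 218.0 among the P cows, with a median of 39.1. In the NP cows it was 10.1 in NP238, 7.84 in NP2541, 3.06 in NP2810, 32.5 in NP638 and 14.0 in NP856. P617 and P1541, at 163.6, were far above the rest of their group, the other 4 P cows lay between 25.4 and 48.0, and NP638 was above 3 of them, so the groups overlapped. The mean was 85.3 ± 83.9 (SD, n = 6) in P and 13.5 ± 11.3 (SD, n = 5) in NP, a ratio of 6.32. This ratio was 4.36 without P617 and 2.42 without both P617 and P1541, whose removal brought the P mean to 32.6 ± 10.4 (SD, n = 4). The log2 fold change was 2.35 with a standard error (SE) of 0.70, 1.97 (SE 0.63) without P617 and 1.5 (SE 0.55) without both, and it lay between 1.97 and 2.74 with any 1 cow removed. The depth limits these values, since MASP1 rested on 3 to 32 reads in the NP cows.

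Smooth muscle markers moved with MASP1. The cows with the most smooth muscle marker transcripts in each group, P617 and P1541 in P and NP638 in NP, were also the cows with the most MASP1. With the group means removed, MASP1 correlated with the smooth muscle score (the mean log2 level of the 6 markers) at Pearson's r = 0.77 over the 11 cows (two-sided exact permutation within groups, p = 0.0135, adjusted p = 0.0969 over 27 relations), with Spearman's rho = 0.69 (p = 0.0322, adjusted p = 0.124) and r = 0.66 without NP2810 and P617. This relation was looked for after the values had been seen, and it does not pass the adjusted threshold of 0.05. With the score as a covariate the log2 fold change of MASP1 was 1.27 (SE 0.58), compared with 2.35 without it. MASP1 ran against the epithelial score, at r = -0.73 (p = 0.00644, adjusted p = 0.0969), with rho = -0.75 (p = 0.00704, adjusted p = 0.0694) and r = -0.91 without P1631 and P617.

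MASP2 (ENSBTAG00000012808), the protease that cleaves C4 and C2 in the lectin pathway, varied less. It was between 88.6 in P1753 and 248.5 in P617 in the P cows, with a median of 143.0. The NP cows were at 98.1, 147.4, 100.9, 138.0 and 120.4 in the same order of cows. The NP values lay inside the range of the P values, and P617 was well above all other cows. The mean was 146.0 ± 57.9 (SD, n = 6) in P and 121.0 ± 21.9 (SD, n = 5) in NP, a log2 fold change of 0.20 (SE 0.26), which became 0.03 (SE 0.22) without P617 and was close to 0 (SE 0.24) without both.

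**Figure D1:**
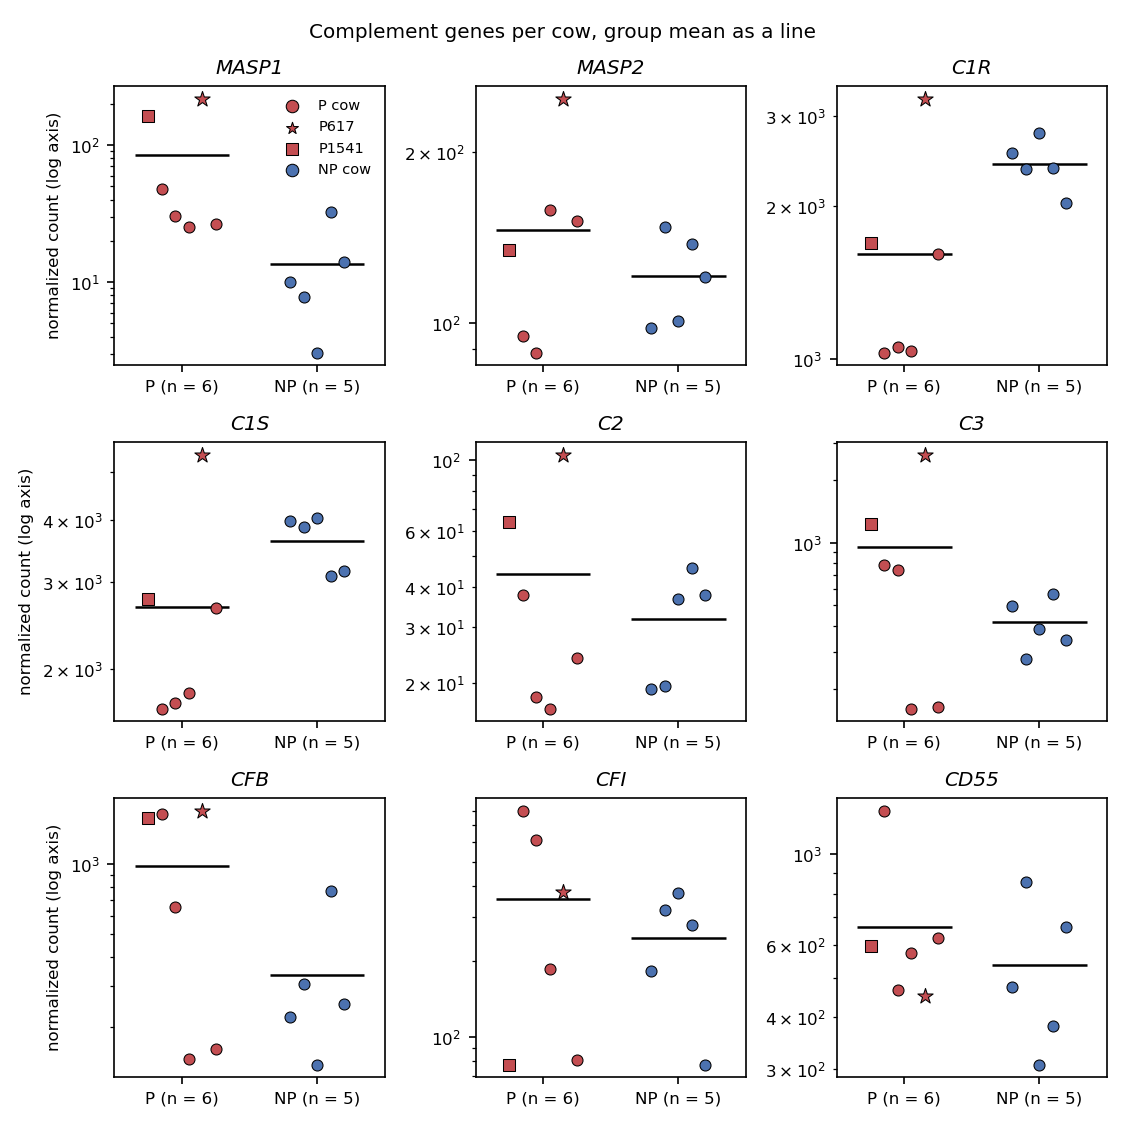
Normalised counts of the 9 complement genes by group, with 1 point per cow on a log axis and the group mean as a horizontal line. P617 (star) is the highest cow for 7 of the 9 genes, MASP1 is highest in P617 and P1541 (square), and C1R and C1S are below all NP cows in every P cow but P617.

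C1R and C1S encode the proteases that C1q activates, and both were lower in P than in NP with the exception of P617. C1R (ENSBTAG00000008612) ranged from 1030 in P1631 to 3245 in P617 in the P cows, with a median of 1333. The NP cows were at 2540 in NP238, 2358 in NP2541, 2778 in NP2810, 2376 in NP638 and 2028 in NP856. The 5 P cows other than P617 were at most at 1690, below the lowest NP cow, and P617 was above the highest. The mean was 1612 ± 854.5 (SD, n = 6) in P and 2416 ± 274.5 (SD, n = 5) in NP, with a log2 fold change of -0.71 (SE 0.27). Without P617 the P mean was 1285 ± 334.6 (SD, n = 5) and the log2 fold change -0.94 (SE 0.17), and without both it was -1.05 (SE 0.15).

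C1S (ENSBTAG00000004840) had the same pattern. It ranged from 1664 in P1631 to 5428 in P617 in the P cows, with a median of 2223, and the NP cows were at 3990, 3880, 4044, 3080 and 3152. Again every P cow but P617, with a highest value of 2770, was below the lowest NP cow. The mean was 2670 ± 1437 (SD, n = 6) in P and 3629 ± 472.8 (SD, n = 5) in NP, with a log2 fold change of -0.57 (SE 0.28) that became -0.80 (SE 0.17) without P617 and -0.91 (SE 0.16) without both. Within a cow the 2 genes kept a narrow ratio, from 1.30 C1S per C1R count in NP638 to 1.72 in P2396 (counts not corrected for transcript length), while the highest cow was 3.15-fold above the lowest for C1R and 3.26-fold for C1S.

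Stromal and epithelial markers were set beside these genes after the values had been seen. The 7 stromal markers, all with a row, none at 0 in every cow and led by COL3A1, summed to between 123419 in P1631 and 367368 in P1541 in the P cows and to between 256683 and 352140 in the NP cows. The 3 P cows with the lowest stromal sums, P1631, P2396 and P1753, were also the 3 lowest for C1R and for C1S. With the group means removed, C1R correlated with the stromal score at r = 0.83 (two-sided exact permutation within groups, p = 0.0144, adjusted p = 0.0969 over the same 27 relations), with rho = 0.94 (p = 0.000937, adjusted p = 0.0253) and r = 0.74 without P1631 and P2396. The values for C1S were r = 0.79 (exact permutation p = 0.0314, adjusted p = 0.105), rho = 0.87 (p = 0.00771, adjusted p = 0.0694) and r = 0.67. The cows left out for each score were those farthest from its median. For the stromal score this kept P617, the highest cow for C1R and C1S, and these relations were not examined without it. Against the epithelial score C1R was at r = -0.91 (exact permutation p = 0.0117, adjusted p = 0.0969) and rho = -0.65 (p = 0.0587, adjusted p = 0.176), with r = -0.55 without P1631 and P617, and C1S was at r = -0.89 (p = 0.0206, adjusted p = 0.105) and rho = -0.65 (p = 0.0666, adjusted p = 0.18), with r = -0.40. Of these 8 coefficients over all cows, the rho of C1R with the stromal score was the 1 that passed the adjusted threshold of 0.05. P1541, which had the highest stromal sum of all cows, was at 1690 for C1R, below all NP cows. The part of stromal and epithelial content in the difference between the groups was not tested.

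C3, CFB and C2 supply the convertases of the cascade, and each was highest in P617. The SD was 96.6% of the mean in P and 28.4% in NP for C3, 77.7% and 37.2% for C2, and 76.2% and 73.9% for CFB. C3 (ENSBTAG00000017280), the component that all pathways cleave, ranged in P from 160.2 in P2396 to 2632 in P617, with a median of 760.6. The NP cows were at 498.6, 277.6, 387.3, 569.2 and 342.0. P2396 and P904 were below all NP cows and the other 4 P cows above all of them. The mean was 951.2 ± 919 (SD, n = 6) in P and 414.9 ± 118 (SD, n = 5) in NP. The log2 fold change of 0.59 (SE 0.66) was smaller than its error, and it was 0.17 (SE 0.55) without P617 and -0.19 without both.

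CFB (ENSBTAG00000046158), which encodes factor B of the alternative pathway, had the second largest mean ratio of the 9 genes, at 2.92. It ranged from 146.2 in P2396 to 1697 in P617 in the P cows, with a median of 1113. In the NP cows it was 219.5 in NP238, 305.0 in NP2541, 137.6 in NP2810, 766.0 in NP638 and 250.6 in NP856. P1541 at 1573 and P1631 at 1646 were close to P617, P2396 and P904 were at the level of the lower NP cows, and NP638 was above 3 of the P cows. The mean was 979.1 ± 745.9 (SD, n = 6) in P and 335.7 ± 248 (SD, n = 5) in NP. The log2 fold change was 1.18 (SE 0.74), 0.90 (SE 0.73) without P617 and 0.50 (SE 0.72) without both. With the smooth muscle score as a covariate it was 0.12 (SE 0.67). The same fit gave -0.90 for C1R, -0.72 for C1S and 0.43 for CD55, each farther from 0 than without the score. It gave -0.19 for C3, -0.25 for C2, -0.04 for MASP2 and 0.03 for CFI.

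C2 (ENSBTAG00000007450), the C2 protease precursor shared by the classical and lectin pathways, was a low gene that rested on 18 to 92 reads per cow. It ranged from 16.6 in P2396 to 103.9 in P617 in the P cows, with a median of 30.8, and the NP cows were at 19.2, 19.6, 36.7, 45.7 and 37.6. Only P617 and P1541, at 63.9, were above the NP range. The mean was 44.0 ± 34.2 (SD, n = 6) in P and 31.8 ± 11.8 (SD, n = 5) in NP, and the log2 fold change of 0.22 (SE 0.49) changed to -0.08 (SE 0.42) without P617 and to -0.37 (SE 0.37) without both.

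CFI and CD55 encode regulators, and their group means differed by less than the SD of the P cows. The same held for each of the other genes chosen for the comparison, MASP1, C1R and CFB included. CFI (ENSBTAG00000034501), the protease that inactivates C3b and C4b, ranged from 77.4 in P1541 to 799.4 in P1631 in the P cows, with a median of 282.9. The NP cows were at 183.1, 322.3, 374.1, 279.0 and 77.4. P1631 and P1753, the latter at 608.0, were above all NP cows, P617, at 378.4, was just above the highest of them, and the other P cows were within the NP range. The mean was 355.2 ± 297.5 (SD, n = 6) in P and 247.2 ± 118 (SD, n = 5) in NP. Its log2 fold change of 0.18 (SE 0.66) turned to between -0.19 and -0.08 when P1631, P1753 or NP856 was left out, and it was 0.05 (SE 0.70) without P617 and 0.43 (SE 0.68) without both.

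CD55 (ENSBTAG00000006984), a membrane protein that speeds the decay of C3 convertases, was the gene for which P617 was lowest in its group, at 451.9. The P cows reached 1273 in P1631, with a median of 584.8, and the NP cows were at 473.3, 854.7, 306.8, 380.5 and 664.6. Apart from P1631, the P cows reached at most 624.6 and lay inside the wider range of the NP cows. The mean was 664.1 ± 306.7 (SD, n = 6) in P and 536.0 ± 222.9 (SD, n = 5) in NP, a log2 fold change of 0.31 (SE 0.31), 0.40 (SE 0.32) without P617 and 0.44 (SE 0.35) without both.

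**Figure D2:**
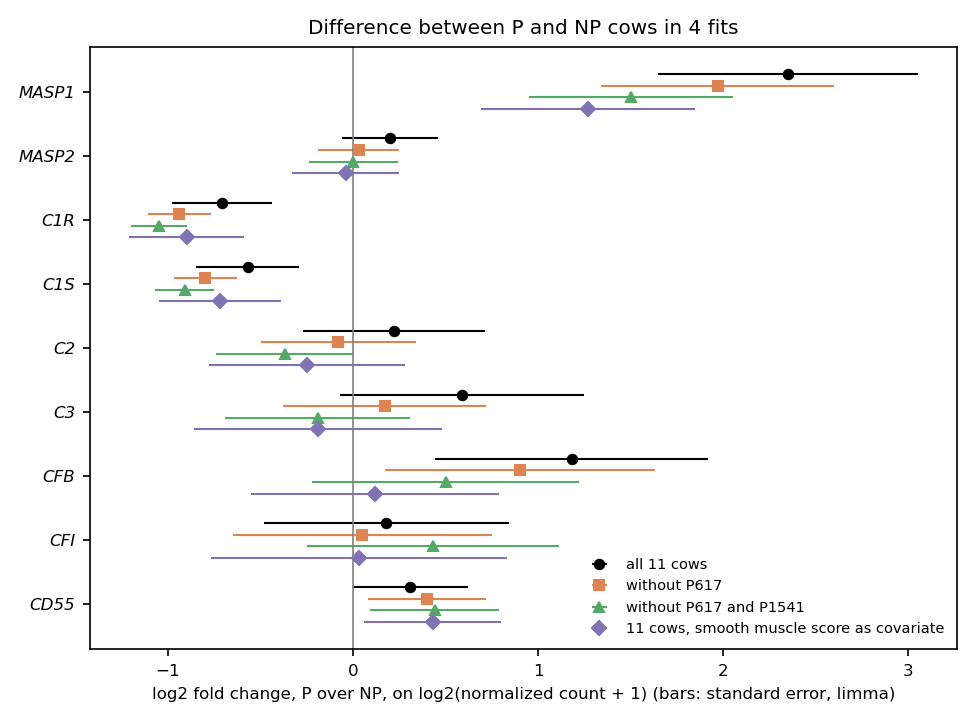
Log2 fold change of P over NP for the 9 genes in 4 fits, with bars of 1 standard error. MASP1 goes from 2.35 with all cows to 1.27 with the smooth muscle score as a covariate, C1R moves away from 0 without P617 from -0.71 to -0.94, and the values of C3, C2 and MASP2 change sign among the fits.

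The groups of 0 of the 9 genes were free of overlap with all 11 cows, where 1.09% of all genes tested were. Without P617, 2 of the 9 genes did not overlap, C1R and C1S, both higher in NP (1.85% of all genes, and 1.37% in that direction), and the same 2 did not overlap without both P617 and P1541 (3.66% of all genes). Without NP638, 1 of the 9 did not overlap, MASP1 (2.02% of all genes). At an adjusted p-value under 0.1, limma called 0 of the 15081 genes with all cows and 0 without P617 (0%). It called 17 genes without both P617 and P1541 (0.113%), among them C1R, and 171 genes without P904 (1.13%), with 0 of the 9 among them. The quasi-likelihood test of edgeR called 0 genes with and without P617. DESeq2 called 201 genes (1.33%), including MASP1, and 328 genes without P617 (2.17%), including MASP1, C1R and C1S. Because the contrast between the groups had a part in the choice, nothing is read from these counts.

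The rule that chose the genes uses the difference between the groups and not the variation among cows of one group, and 7 pairs of genes were compared on the latter. With the group means removed, 3 pairs moved together over the 11 cows at an adjusted p-value under 0.05 (two-sided exact permutation within groups over 86400 rearrangements, adjusted over the 7 pairs). For the other pairs of the 9 genes, r was computed without p-values and lay between -0.42 (C1R and CD55) and 0.80 (MASP1 and CFB). MASP1 with C2, at 0.79, and C3 with C2, at 0.76, were also above MASP1 with C3, at 0.75. How often pairs outside the 9 genes reach such values was not examined, and differences in cell content among cows were not removed. Genes outside the cascade also moved with MASP1, such as FGFR2 at r = 0.977, as given below. C1R and C1S, the paired proteases of the C1 complex, correlated at r = 0.98 (p = 0.00103, adjusted p = 0.00721) and rho = 0.95 (p = 0.00059, adjusted p = 0.00413), and r was still 0.98 without P1631 and P2396, the 2 cows farthest from the median of C1R. Without both P617 and P1541 it was 0.91, and the adjusted p of 0.143 no longer passed. These 2 genes are paralogs, and the strand and the treatment of reads that fit more than 1 place are not stated for the counting.

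C3 and CFB, the 2 parts of the alternative pathway convertase, correlated at r = 0.86 (exact permutation p = 0.00684, adjusted p = 0.0239) and rho = 0.82 (p = 0.00764, adjusted p = 0.0224), and r was 0.82 without P2396 and P617. P2396 and P904 were low for both genes and P617 and P1541 high for both. Left-out cows mattered here, as the adjusted p was 0.0527 without P1753, 0.0755 without NP638, 0.0634 without P617, at r = 0.87, and 0.231 without both P617 and P1541, at r = 0.84.

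MASP1 and C3 correlated at r = 0.75 (exact permutation p = 0.0212, adjusted p = 0.0494) and rho = 0.78 (p = 0.00959, adjusted p = 0.0224), with r = 0.72 without NP2810 and P617. Without both P617 and P1541, r was 0.39 (adjusted p = 0.231), so this relation rests largely on those 2 cows. The call was also lost without P617 alone (r = 0.62, adjusted exact permutation p = 0.0911), when P1631, P1753, NP238, NP2541 or NP638 was the cow left out (adjusted p from 0.0508 to 0.115), and with TMM scaling (0.0504). The 4 other pairs did not pass. C2 and CFB were at r = 0.69 (exact permutation p = 0.0611, adjusted p = 0.107) and rho = 0.65 (adjusted p = 0.103), with r = 0.53 without P2396 and P617. MASP1 and MASP2 were at r = 0.50 (exact permutation p = 0.165, adjusted p = 0.231) and rho = 0.33 (adjusted p = 0.492), and r was 0.04 without NP2810 and P617. C3 and CFI were at r = 0.33 and rho = 0.23 (adjusted exact permutation p = 0.495 and 0.555), and C3 and CD55 at r = -0.20 and rho = -0.25 (adjusted exact permutation p = 0.621 and 0.546), with r = 0.28 and -0.13 without P2396 and P617.

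**Figure D3:**
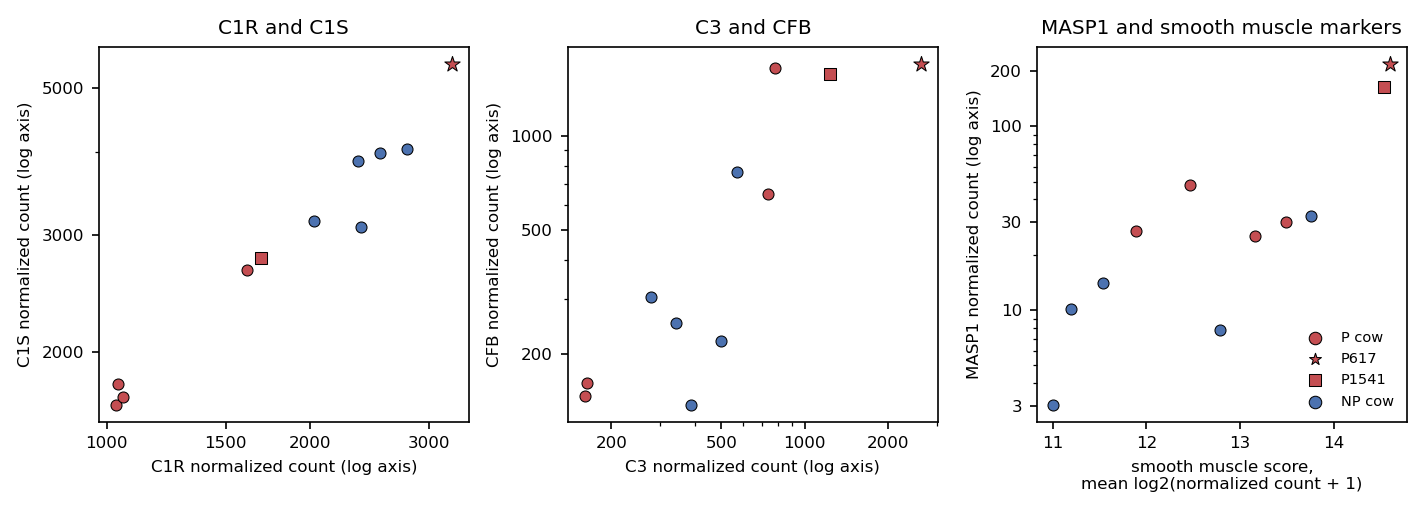
Normalised counts on log axes for C1R against C1S and C3 against CFB, and MASP1 against the smooth muscle score, with 1 point per cow. The 11 cows lie close to 1 line for C1R and C1S (r = 0.98 with the group means removed), and P617 and P1541 are the highest cows for both MASP1 and the smooth muscle score (r = 0.77, likewise).

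Among the 12569 genes with a symbol and a mean of at least 20 normalised counts, 5 had the pattern most like MASP1 over the 11 cows, by Pearson's r of log2 values with the group means removed. These were FGFR2, a receptor for fibroblast growth factors (r = 0.977), BOC, a co-receptor for hedgehog ligands (r = 0.959), ADAMTSL3, a secreted matrix protein (r = 0.959), NR1H2, the oxysterol receptor LXR beta (r = 0.955), and PRKAG2, a subunit of AMP-activated kinase (r = 0.948). They were picked as the highest of many, so their r has no p-value. FGFR2 was at 2510 in P617, 2684 in P1541 and 1455 in NP638, and between 602.4 and 1269 in the other 8 cows. Each of the 5 genes was highest in P617 or P1541, and the r values without P617 were 0.97, 0.95, 0.95, 0.94 and 0.92 in the order given.

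A list of 38 other complement genes was examined, of which 35 had a row and 29 reached the minimum mean. C4B, C5AR2 and ITGAX had no row under these symbols, and C1RL, MBL1, MBL2, FCN1, C4BPB and CPN2 were under the minimum. Of the 29 tested genes, 11 were higher in P and 18 higher in NP, with a median log2 fold change of -0.19, compared with -0.00182 over all genes. An adjusted p-value under 0.1 was reached by 0 of the 29 in limma, edgeR and DESeq2. At an unadjusted p-value under 0.05 limma called 3 of the 29, all higher in NP, which is 10.3% of the list, compared with 7.84% of all genes in either direction and 5.49% higher in NP. Without P617 it called 4 (8.95% of all genes), all higher in NP (6.18% of all genes). With edgeR the count was 6 of 29 (7.63% of all genes) and 5 without P617 (8.5%), and with DESeq2 it was 5 of 29 (9.75%) and 5 without P617 (9.84%). C6 and VTN among the edgeR genes, and C6 among the DESeq2 genes, were higher in P. These genes reached the minimum mean through P617, as described below, and were not called without it.

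Those 3 genes were C1QA, C1QB and C1QC, the chains of C1q, which binds antibodies and dying cells and is made mainly by macrophages. C1QA was 85.9 in P617, the lowest P cow, and at most 250.0 in P904, and the NP cows were at 279.2, 181.9, 651.4, 176.5 and 358.1. C1QB was 82.2 ± 31.0 (SD, n = 6) in P and 188.0 ± 97.7 (SD, n = 5) in NP, with a log2 fold change of -1.11 (SE 0.35, limma adjusted p = 0.423). NP2810 was the highest cow and P617 the lowest for each chain, P904 was above 2 or 3 NP cows, and the groups overlapped.

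The means were 156.7 ± 53.6 and 329.4 ± 195 for C1QA (log2 fold change -0.96, SE 0.35, limma adjusted p = 0.504) and 128.6 ± 66.5 and 252.2 ± 128.8 for C1QC (-0.95, SE 0.35, adjusted p = 0.508), in P (SD, n = 6) and NP (SD, n = 5). The adjusted p-values lay between 0.14 and 0.881 for the 3 chains with any 1 cow removed. The 8 leukocyte markers, all with a row and none at 0 in every cow, summed to 437.5 to 970.5 in the P cows and 764.0 to 1649 in the NP cows, with P904 the highest P cow and NP2810 the highest NP cow. PTPRC, the highest of them on average, was at 149.0 to 267.3 in P and 204.9 to 315.1 in NP. The part of leukocyte content in the C1q values was not tested.

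Among the regulators of the list with high counts, SERPING1, the C1 inhibitor that blocks C1r, C1s and the MASP proteases, was highest in P617, as C1R and C1S were. It was 5364 in P617 and 1239 to 2745 in the other P cows, and 1789, 2956, 2434, 3432 and 2143 in the NP cows. Its log2 fold change was -0.32 (SE 0.35, limma adjusted p = 0.861), and without P617 it was -0.61 (SE 0.23, adjusted p = 0.446). The row of SERPING1 names another locus beside this symbol, so its counts are uncertain.

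CLU, which binds the terminal complex, was the most even of these genes at 9129 ± 1457 (SD, n = 6) in P and 9103 ± 942.7 (SD, n = 5) in NP. CD46 and CD59, membrane inhibitors of C3b and of the terminal complex, were 2902 ± 536.8 and 430.4 ± 130.3 in P, and 3398 ± 561.4 and 469.6 ± 66.8 in NP (SD, n = 6 and 5). The log2 fold changes of these 3 genes were -0.01, -0.23 and -0.17, each with a limma adjusted p of 0.77 or more. CPN1, the catalytic chain of carboxypeptidase N, was 6.78 in P617 and 188.7 in P1541, and 451.6 to 1235 in the other 9 cows (log2 fold change -1.65, SE 1.06, adjusted p = 0.77, and -0.64 without P617).

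**Figure D4:**
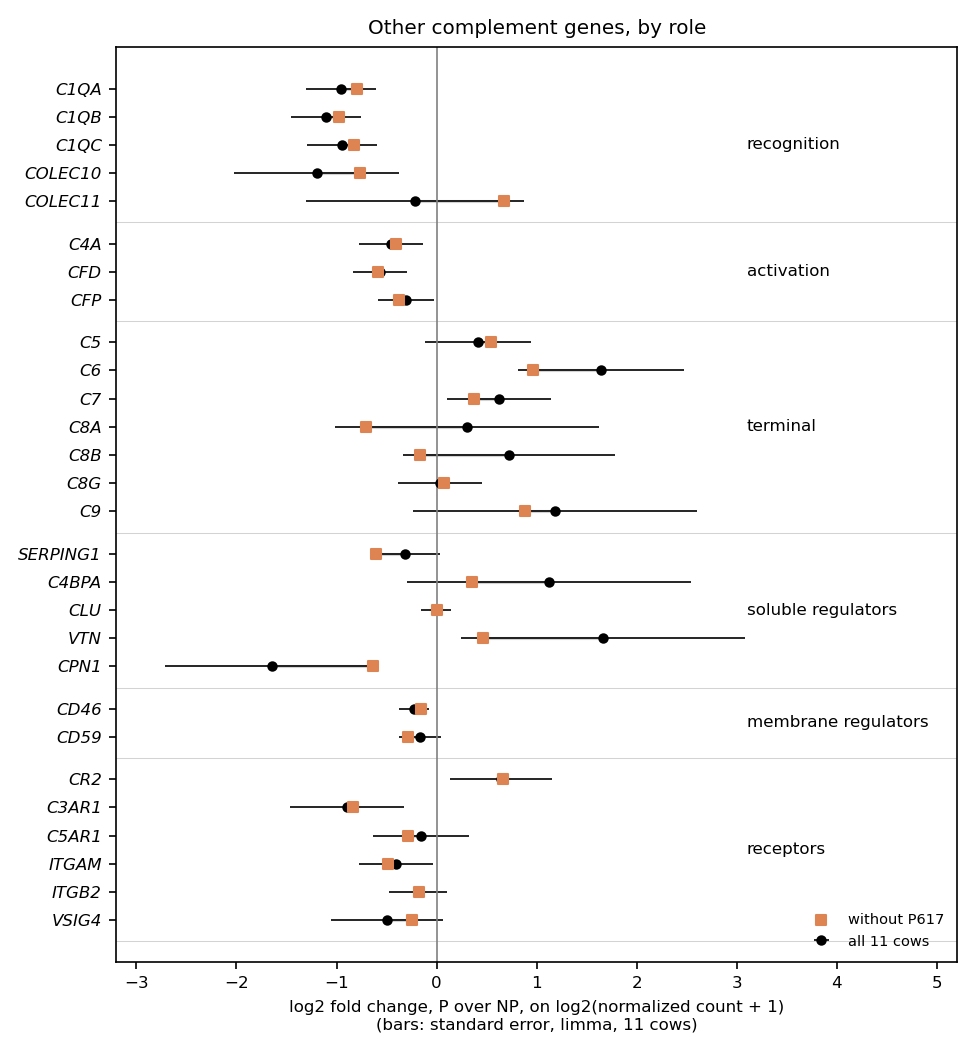
Log2 fold change of P over NP for all but 1 of the 29 tested genes of the list, grouped by role, with all 11 cows (circles, bars of 1 standard error) and without P617 (squares). The 3 C1q chains lie between -1.11 and -0.95, and C8A, C8B and VTN move most towards NP when P617 is left out.

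Some of the components that come mainly from the liver were found almost only in P617, and others were not. VTN, which keeps the terminal complex out of membranes, was at 335.5 in P617 and at most 14.5 in the other 10 cows. C8A, C8B and C6, parts of the terminal complex, were at 100.5, 72.3 and 64.4 in P617 and at most 13.3, 5.38 and 8.71 elsewhere. MBL2, a recognition molecule that activates the MASP proteases, was at 36.1 in P617 and at most 2.35 elsewhere, and the row that names both MBL1 and SFTPA1 was at 21.5 and at most 3.23. C9, also of the terminal complex, was at 230.4 in P617, below P1541 at 410.4, NP238 at 282.2 and NP856 at 338.8. C5, whose cleavage starts that complex, was at 80.2 in P617 and reached 254.7 in P1753, and C8G was at 136.7 in P617 and reached 287.1 in NP638. CPN1, given above, was lowest in P617.

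C6, C8A, C8B and VTN reached the minimum mean through P617. Their log2 fold changes went from 1.64, 0.30, 0.72 and 1.66 with all cows to 0.96, -0.71, -0.17 and 0.46 without it. MASP2 was highest in P617 at 248.5, while the other 10 cows had between 88.6 and 158.4. The liver transcripts also coincide in P617 with high C3, at 2632, and high C2, at 103.9. MASP1, at 218.0, CFB, at 1697, C1R, at 3245, and C1S, at 5428, were highest in P617 as well. CFI, at 378.4, and CD55, at 451.9, were not highest in that cow. The part of the liver transcripts in the values of all these genes was not tested.

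**Figure D5:**
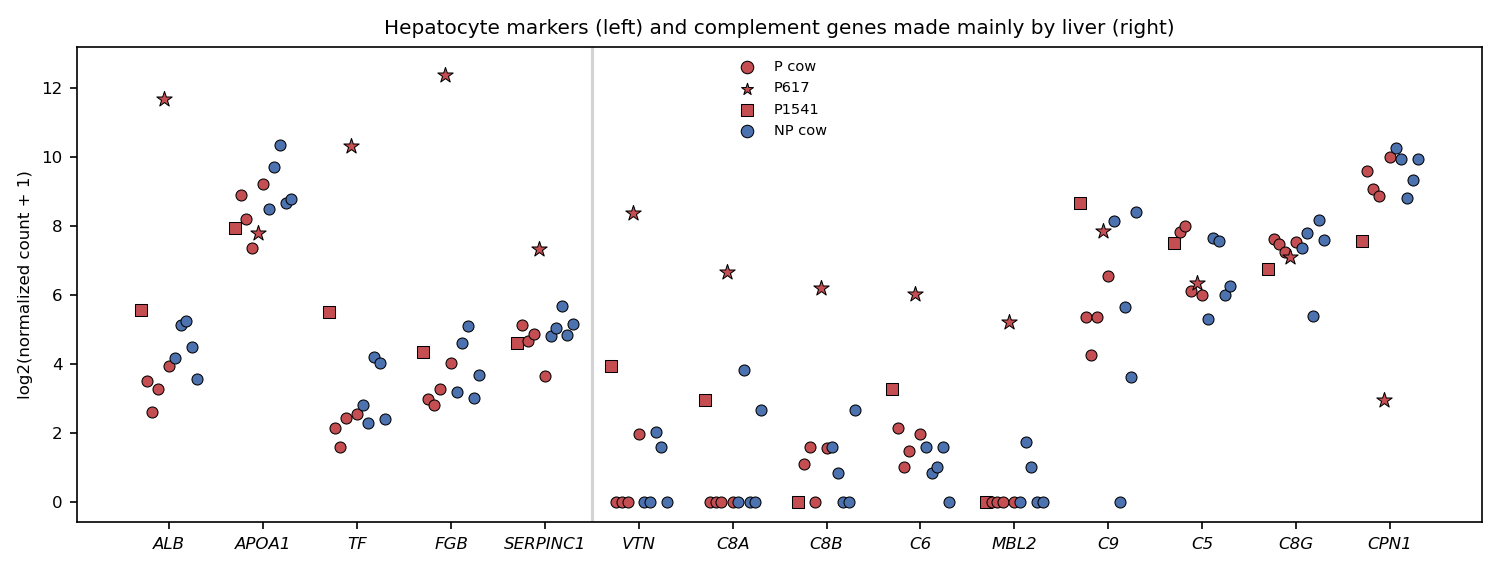
Log2(normalised count + 1) per cow of the 5 hepatocyte markers with a row (left of the grey line) and 9 complement genes made mainly by the liver (right). P617 (star) is the highest cow for ALB, FGB, TF, SERPINC1, VTN, C8A, C8B, C6 and MBL2, but not for APOA1, C9, C5 and C8G, and it is the lowest for CPN1.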

How the data were processed

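The authors deposited 1 table with a normalised count per gene for each of 11 cows, handled here as a signal, since it is not a raw count. According to the study's methods and the submitters' processing notes, libraries were prepared with TruSeq, base calls were made with CASAVA 1.8.2, filtered paired-end reads were mapped to UMD3.1 with Bowtie2 2.1.0, counted per gene with HTSeq 0.5.4p2 and divided by size factors in DESeq2 1.12.1. The annotation and the use of strand are not given in the sources used here. Size factor scaling assumes that most genes do not differ between cows. In every cow 100% of values were within 0.01 of a whole number of reads. Size factors computed again from those reads differed from the authors' by at most 7.5e-11 of their value. In P1753 and NP238, 1 read is worth so close to 1 normalised count that this test says little there.

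Groups were taken from the labels. The main test was limma 3.58.1 (lmFit, eBayes with trend) in R 4.3.3 on log2(normalised count + 1) for 15081 genes (mean of 5 or more), with Benjamini-Hochberg adjustment at 0.1. Each cow was 1 sample. Alternatives were count tests (edgeR 4.0.16, DESeq2 1.42.0) of the whole reads, as well as TMM and upper quartile scaling, no minimum or a minimum of 20, pseudocounts of 5 and 0.5, and each cow left out. Fits without P617 and P1541, with the smooth muscle score, and count tests without P617 were added after seeing the data. On simulated data for P against NP over 15081 genes, with 200 changed by a log2 fold of 2, limma recovered 76.5% with 11.6% of its calls false, edgeR 77.5% with 10.4% and DESeq2 84.5% with 30.5%.

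Genes and lists were chosen with earlier results of these data known. Named genes were the 9 genes, list genes at an unadjusted p-value under 0.05 or without overlap, the 6 list genes with the highest mean, the 5 genes most like MASP1 and the highest marker of each list. VTN, C5, C6, C8A, C8B, C8G, C9, MBL1, MBL2, ALB, TF, APOA1, SERPINC1 and SERPING1's values without P617 were singled out after their values had been seen. Gland (led by LTF, sums 2907 to 11163 in P and 820.8 to 4244 in NP), ciliated (FOXJ1, 62.1 to 2587 and 475.8 to 1713, with PIFO at 0), endothelial (KDR, 2873 to 10330 and 6307 to 11187) and erythrocyte markers (HBB, 0 to 13.1 and 3.03 to 11.2) were also summed. The values of 1 gene of the list are not reported here. Coordinates and sequences are not given, because the reference used here is of another assembly.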

Additional observations from a re-analysis of the deposited data

Results flagged for a closer look

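In 36 groups of 5 or 6 cows (18 named genes in P and in NP), 6 had 1 cow set far apart from the others by Dixon's criterion. Chance gives this in about 1 of 20 groups where values are normally distributed and groups are independent. Counts can be skewed and C1R and C1S moved together, so nothing is read from the number of flags. C1R and C1S were highest in P617, at 3245 and 5428 normalised counts, compared with 1030 to 1690 and 1664 to 2770 in the other P cows. SERPING1, the inhibitor of both proteases, was also highest in P617, at 5364 compared with 1239 to 2745. CD55 was 1273 in P1631 and 451.9 to 624.6 in the other P cows. C1QC was 260.6 in P904 and 76.8 to 123.8 in the other P cows. CFB was 766.0 in NP638 and 137.6 to 305.0 in the other NP cows.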

How the results depend on the processing

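Over all alternatives the log2 fold change lay between 1.27 and 2.74 for MASP1, -1.05 and -0.58 for C1R, -0.91 and -0.44 for C1S, 0.12 and 1.60 for CFB and 0.10 and 0.50 for CD55, whereas C3 (-0.19 to 1.2), C2 (-0.37 to 0.47), CFI (-0.19 to 0.52) and MASP2 (-0.04 to 0.33) changed sign in some. The lowest values of MASP1 and CFB came with the smooth muscle score as a covariate. The number of genes called by limma, 0, became 201 with DESeq2, 328 with DESeq2 without P617, 17 without both P617 and P1541, and 0 to 171 when each cow was left out, the highest without P904. The list count of 3 became 6 with edgeR, 5 with DESeq2, 5 with either test without P617, and 2 to 5 with each cow left out, the highest without NP2541 or NP638. The 6 included C6 and VTN, and the 5 of DESeq2 with all cows included C6, each higher in P. Genes of the 9 without overlap, 0 with all cows, were 2 without both, and 0 to 2 with each cow left out, the highest without P617. Without both P617 and P1541, r was 0.91 for C1R and C1S (adjusted exact permutation p = 0.143), 0.84 for C3 and CFB (0.231), 0.39 for MASP1 and C3 (0.231) and 0.05 for C3 and CD55, a reversed sign (0.957), with fewer arrangements to draw on. With each cow left out, r lay between 0.94 and 1.00 for C1R and C1S, 0.80 and 0.89 for C3 and CFB, and 0.62 and 0.83 for MASP1 and C3. C3 and CFB missed the threshold without P1753, P617 or NP638, and MASP1 and C3 without P1631, P1753, P617, NP238, NP2541 or NP638 and with TMM scaling (r = 0.75, adjusted exact permutation p = 0.0504). Without removing group means, C2 and CFB passed (r = 0.67, adjusted exact permutation p = 0.0417). The cause of the other changes was not tested. No paired analysis was possible because the groups share no replicate numbers. Among the 9 genes depth limits MASP1 most, at 3 to 32 reads in NP, and VTN, C8A, C8B and MBL2 were at 0 in several cows.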
